A study of Mus musculus with 12 samples.

Results

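The albumin family and 2 regulators named for their part in its developmental control were followed across sorted fetal liver (FL) cells. The 6 genes, *Alb*, *Afp*, *Gc*, *Afm*, *Zbtb20*, and *Zhx2*, were taken as a list by name from the 38127 genes counted in each library, and all 6 were found and passed the low count filter of every comparison. They were named for what they are known to do, not by a threshold on a measured value, but with earlier results of these data known.

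Albumin (*Alb*), alpha-fetoprotein (*Afp*), vitamin D-binding protein (*Gc*), and afamin (*Afm*) descend from one ancestral gene and are secreted into plasma by cells of the hepatocyte lineage. Albumin carries fatty acids, hormones, and drugs and holds the osmotic pressure of blood; alpha-fetoprotein is its fetal counterpart, which falls to very low levels after birth while albumin stays high; *Gc* carries vitamin D metabolites and binds actin; and afamin binds vitamin E and lipidated Wnt proteins. *Zbtb20*, a zinc finger protein, and *Zhx2*, a zinc finger and homeobox protein, are known as repressors of *Afp* in the liver after birth.

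The 12 libraries were made from C57BL/6 mouse embryos, in 4 groups of 3. All cells came from digested FL and were sorted as Ter119-CD45-, that is, without the erythrocyte marker Ter119 and the pan-hematopoietic marker CD45. At embryonic day (E) 14.5, the groups were CD54+CD31- cells, which the study names CD324+ after epithelial cadherin and which include hepatoblasts, CD54+CD31+ cells, which hold endothelial cells, and CD54-CD31-Kit+CD24+ cells, named P2, an erythroid progenitor population. The fourth group was E18.5 CD54+CD31- cells. No genotype, transgene, or treatment differed between the groups. Replicates of the E14.5 populations came from independent litters per the study, and how many embryos entered a library was not given in the sources used here.

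Total counts ranged from 40714017 to 64368883 per library. The E14.5 groups carried most markers of their labels. The summed level of 15 hepatoblast markers was between 32555 and 37211 CPM in CD54+CD31- cells. It was between 306 and 524 CPM in the other E14.5 libraries. CPM is the gene's count scaled to the size of its library, with edgeR's TMM factors. All 10 endothelial markers were higher in CD54+CD31+ than in CD54+CD31- cells, where 31.7% of all genes were. In P2 cells 8 of 9 erythroid markers were higher than in CD54+CD31- cells, where 33.8% of all genes were. The other, *Slc4a1*, was lower (log2 fold change -0.91). Of 10 endothelial markers, 8 were also higher in P2 cells, with sums of 58.8, 389, and 105 CPM in P2 replicates 1, 2, and 3. The E18.5 CD54+CD31- libraries stood apart. They held 15 of 15 lung epithelium markers above 0, against 12, 13, and 12 in replicates 1, 2, and 3 of the same gate at E14.5. The groups differed in the sum of these markers. It was 26139 CPM in E18.5 replicate 1, 12185 CPM in replicate 2, and 12255 CPM in replicate 3, against 170 to 185 CPM at E14.5. The hepatoblast markers of the E18.5 libraries summed to 1540, 18890, and 25289 CPM in the same order. Replicate 1 thus held the fewest hepatoblast transcripts and the most lung transcripts. Mesenchymal markers summed to between 3988 and 4412 CPM against 124 to 244 CPM at E14.5. Values without replicate 1 are given beside the comparisons of CD54+CD31- cells between the ages. In sorted bulk samples, fewer cells of a type and less RNA per cell cannot be told apart.

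The 4 carrier genes lie on mouse chromosome 5, build GRCm38. *Gc* spans chr5:89417522-89457898 on the minus strand, and *Alb* (chr5:90460897-90476602), *Afp* (chr5:90490737-90508907), and *Afm* (chr5:90518932-90553543) follow on the plus strand. The gap from *Gc* to *Alb* is 1003 kb, that from *Alb* to *Afp* 14134 bases, and that from *Afp* to *Afm* 10024 bases. *Zbtb20* spans chr16:42875881-43642602 and *Zhx2* chr15:57694665-57839832, both on the plus strand. All 6 are protein-coding genes.

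The promoters of the 4 carrier genes are shown because these genes moved together across the libraries. The RefSeq windows run from 250 bases before to 50 bases after the annotated start (build GRCm38.p6, 5′ to 3′ on the gene's strand), and 5 of the 6 genes had one. Capitals mark CCAAT and TATAAA, letters of the CCAAT box and the TATA box of promoters, on either strand (ATTGG is CCAAT read on the other strand).
Alb, chr5:90460620-90460919, plus strand: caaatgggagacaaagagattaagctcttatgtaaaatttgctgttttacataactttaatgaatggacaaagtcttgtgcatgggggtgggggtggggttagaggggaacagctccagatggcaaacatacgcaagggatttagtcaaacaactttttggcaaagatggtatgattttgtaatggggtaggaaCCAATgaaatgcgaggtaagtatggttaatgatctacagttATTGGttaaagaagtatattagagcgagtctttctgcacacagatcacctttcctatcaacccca
Afp, chr5:90490464-90490763, plus strand: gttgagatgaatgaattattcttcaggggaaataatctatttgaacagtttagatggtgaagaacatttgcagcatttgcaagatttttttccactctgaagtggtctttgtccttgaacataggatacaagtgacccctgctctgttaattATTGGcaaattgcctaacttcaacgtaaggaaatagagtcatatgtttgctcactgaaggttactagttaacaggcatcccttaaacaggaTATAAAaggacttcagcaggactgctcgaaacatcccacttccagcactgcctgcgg
Gc, chr5:89457849-89458148, minus strand: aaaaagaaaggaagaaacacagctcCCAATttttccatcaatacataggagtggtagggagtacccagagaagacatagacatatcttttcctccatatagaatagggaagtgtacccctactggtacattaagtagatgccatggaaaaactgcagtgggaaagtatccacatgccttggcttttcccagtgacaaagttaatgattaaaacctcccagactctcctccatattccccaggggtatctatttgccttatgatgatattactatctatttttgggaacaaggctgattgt
Afm, chr5:90518699-90518998, plus strand: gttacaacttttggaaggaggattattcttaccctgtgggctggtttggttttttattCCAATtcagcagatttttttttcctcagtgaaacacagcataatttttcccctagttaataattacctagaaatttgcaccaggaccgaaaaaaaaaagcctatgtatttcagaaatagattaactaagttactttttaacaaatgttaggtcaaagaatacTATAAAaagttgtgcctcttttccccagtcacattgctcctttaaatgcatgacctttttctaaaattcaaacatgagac
CCAAT began 56 bases before the start in *Alb*, with a match on the other strand at 15 bases, and it lay 98 bases before the start in *Afp*, on the other strand, 225 in *Gc*, and 192 in *Afm*. TATAAA lay 7 bases before the start in *Afp* and 30 in *Afm*, and the windows of *Alb* and *Gc* did not hold these letters. Of 32851 promoter windows of this length, 37.4% held CCAAT and 13.6% held TATAAA on either strand. The motifs were chosen after the sequences were seen, and a match of letters is not a measured binding site.

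At E14.5, the 4 carrier genes were transcripts of CD54+CD31- cells, at levels 72.8-fold to 117-fold above those in the other populations. *Alb* stood at 40966, 46629, and 46678 CPM in CD54+CD31- replicates 1, 2, and 3, at 485, 482, and 465 CPM in CD54+CD31+ cells, and at 395, 377, and 389 CPM in P2 cells. It took between 3.07% and 3.76% of all counts in the CD54+CD31- libraries and between 0.0375% and 0.0534% in the other 6. The groups did not overlap, and replicates lay close together. How many of all genes were without overlap between groups was not counted, here or below.

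*Afp* stood at 14440, 17049, and 17230 CPM in CD54+CD31- cells, at 197, 199, and 188 CPM in CD54+CD31+ cells, and at 149, 144, and 149 CPM in P2 cells. *Gc* stood at 604, 716, and 691 CPM, at 9.54, 9.37, and 8.64 CPM, and at 6.29, 7.22, and 6.01 CPM in the same groups and order. *Afm*, with the lowest counts of the family, stood at 141, 135, and 142 CPM, at 1.87, 1.69, and 2.19 CPM, and at 1.52, 0.937, and 1.5 CPM, the last from 66, 45, and 78 reads. Each of the 3 genes was high in every CD54+CD31- library and low, but above 0, in every other E14.5 library.

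**Figure D1:**
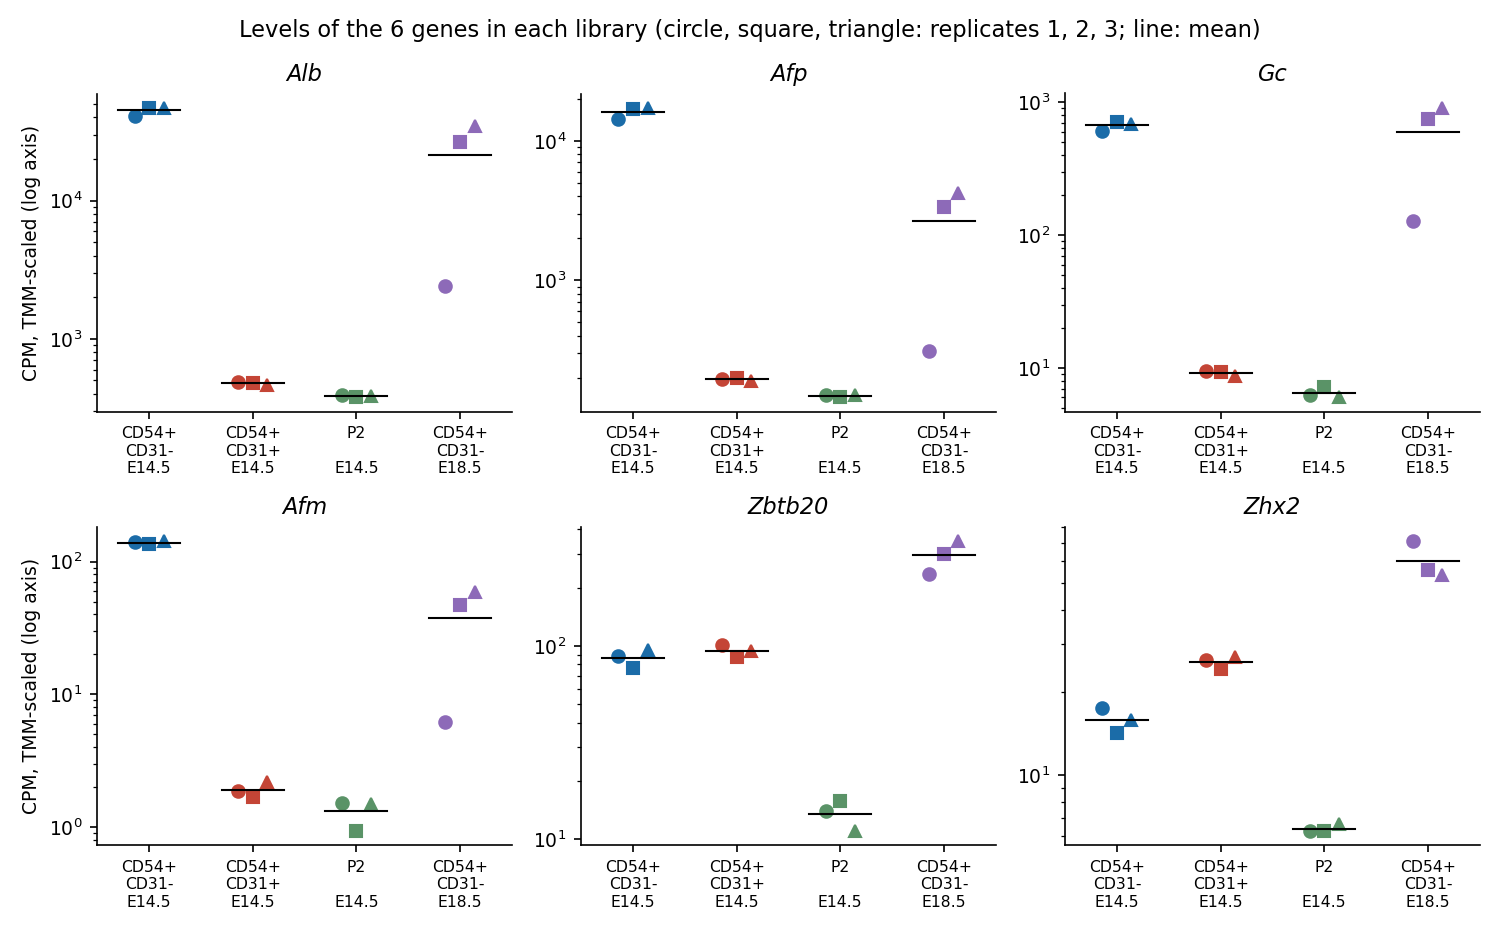
CPM of the 6 genes (log axis, TMM-scaled) in each of the 12 libraries, by group; circles, squares, and triangles are replicates 1, 2, and 3 and lines are group means. The 4 carrier genes are high in E14.5 CD54+CD31- cells and lowest in P2 cells, E18.5 replicate 1 lies far below the other E18.5 libraries for them, and *Zbtb20* and *Zhx2* are highest at E18.5.

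Against CD54+CD31- cells, all 6 genes were lower in P2 cells (edgeR's quasi-likelihood test, Benjamini-Hochberg adjusted p below 0.05). Of the 15461 genes tested, 70.0% were called, 36.1% lower and 33.8% higher. The log2 fold change was -6.87 ± 0.11 (SE, n = 3 libraries per group) for *Alb* (adjusted p = 8.97e-11, edgeR), -6.80 ± 0.11 for *Afp*, -6.70 ± 0.12 for *Gc*, and -6.74 ± 0.18 for *Afm*. All 15 hepatoblast markers were lower too, with a median of -6.80, and the median of all genes was -0.011. *Zbtb20* and *Zhx2* were lower by less.

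*Zbtb20* stood at 89.0, 76.3, and 94.5 CPM in CD54+CD31- cells, at 101, 87.6, and 93.5 CPM in CD54+CD31+ cells, and at 13.9, 15.7, and 11 CPM in P2 cells. It was 6.49-fold lower in P2 than in CD54+CD31- cells (log2 fold change -2.70 ± 0.14, SE; adjusted p = 6.00e-08, edgeR). *Zhx2* stood at 17.6, 14.3, and 15.8 CPM, at 26.2, 24.3, and 26.8 CPM, and at 6.27, 6.29, and 6.62 CPM in the same order. It was 2.52-fold lower in P2 than in CD54+CD31- cells (-1.33 ± 0.11, SE; adjusted p = 1.98e-06, edgeR). Unlike the carriers, neither regulator was called lower in the endothelial than in the hepatoblast gate, as follows.

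In CD54+CD31+ against CD54+CD31- cells, 4 genes were lower and *Zhx2* was higher, where 65.6% of all genes tested were called, 34.0% lower and 31.7% higher. *Alb* differed by -6.56 ± 0.11 on the log2 scale (SE; adjusted p = 1.21e-10, edgeR), *Afp* by -6.39 ± 0.11, *Gc* by -6.20 ± 0.12, and *Afm* by -6.19 ± 0.18. All 15 hepatoblast markers were lower, with a median of -6.24. *Zhx2* was 1.61-fold higher (0.69 ± 0.11, SE; adjusted p = 0.000270, edgeR), without overlap between libraries, which was not counted over all genes. For *Zbtb20* the difference was 0.11 ± 0.13 (SE; adjusted p = 0.483, edgeR), within the spread, and it was -0.055 without CD54+CD31- replicate 2.

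All 6 genes were also lower in P2 than in CD54+CD31+ cells, a comparison in which 73.7% of all genes were called, 39.4% lower and 34.3% higher. *Zbtb20* was 7.01-fold lower (-2.81 ± 0.14, SE; adjusted p = 9.08e-08, edgeR) and *Zhx2* 4.06-fold lower (-2.02 ± 0.11; adjusted p = 1.48e-07, edgeR). The carriers differed by little, from -0.31 ± 0.08 (SE) for *Alb* to -0.55 ± 0.18 for *Afm*, and 11 of 15 hepatoblast markers were lower with a median of -0.68. The median of all genes in this comparison was -0.13. The calls of *Alb* and *Afm* depended on single libraries. *Alb* was not called without CD54+CD31+ replicate 2 (-0.24), P2 replicate 1 (-0.25), or P2 replicate 2 (-0.29), nor *Afm* without CD54+CD31+ replicate 3 (-0.39) or P2 replicate 2 (-0.35). With all 12 libraries in one fit, only *Zbtb20* and *Zhx2* remained called.

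The order of the 4 groups differed between carriers and regulators. For *Alb*, *Afp*, *Gc*, and *Afm* the mean level fell from E14.5 CD54+CD31- to E18.5 CD54+CD31-, CD54+CD31+, and P2 cells. The first 2 groups in that order overlapped for *Gc* and did not overlap for the other 3, and only *Afp* was called different between them with all libraries, as given below for age. E18.5 cells lay above CD54+CD31+ cells for all 4, by 5.47 ± 0.75 (log2, SE; adjusted p = 5.62e-05, edgeR) for *Alb* and by 3.77 ± 0.68 for *Afp*, and by 6.00 ± 0.14 and 4.30 ± 0.13 without E18.5 replicate 1. For *Zbtb20* and *Zhx2* the order ran from E18.5 CD54+CD31- to CD54+CD31+, E14.5 CD54+CD31-, and P2 cells, and only CD54+CD31+ and E14.5 CD54+CD31- cells for *Zbtb20* did not differ beyond their spread. All 6 genes were higher at E18.5 than in CD54+CD31+ cells, where 68.5% of genes were called, 29.7% higher and 38.8% lower, and higher than in P2 cells, where 80.6% were called, 44.0% higher and 36.6% lower. The 6 calls in each were the same without E18.5 replicate 1. In these last comparisons age and population cannot be told apart.

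Between genes, levels were set side by side per kilobase of merged exons. In E14.5 CD54+CD31- cells, *Alb* had 19111 ± 1402 CPM per kb (SD, n = 3), *Afp* 4822 ± 464, *Gc* 363 ± 31.8, *Afm* 45.8 ± 1.28, *Zhx2* 3.59 ± 0.370, and *Zbtb20* 2.82 ± 0.304. In CD54+CD31+ cells *Alb* had 204 ± 4.62 CPM per kb (SD, n = 3) and *Zhx2* 5.81 ± 0.295, and in P2 cells 165 ± 3.78 and 1.44 ± 0.0451. Per kilobase of the whole gene span, introns included, the levels in E14.5 CD54+CD31- cells were 2850 ± 209 for *Alb*, 894 ± 85.9 for *Afp*, 16.6 ± 1.45 for *Gc*, 4.02 ± 0.112 for *Afm*, 0.113 ± 0.0122 for *Zbtb20*, and 0.110 ± 0.0113 for *Zhx2* (CPM per kb, SD, n = 3). The carriers kept their order on this scale, and the 2 regulators lay within their spread. Per kilobase of exons the *Zhx2* libraries (3.22 to 3.96) had lain above those of *Zbtb20* (2.48 to 3.08), so the order of the regulators depended on the length used. These values rest on how the reads were counted. Of 347 protein-coding genes that lie in the introns of one gene on the opposite strand, 343 (98.8%) held 0 counts in all 12 libraries, as did 133 of 134 (99.3%) on the same strand, against 2187 of 13886 genes (15.7%) with no overlapping gene. Reads in a span shared by 2 genes were thus nearly absent from the counts, introns included and on either strand. The antisense gene *Gm43449* shares 54.0% of the span of *Afp* and 63.8% of its exon bases, and how much of the *Afp* transcript its count leaves out was not tested. *Alb*, *Gc*, and *Afm* share no span with a counted gene, *Zbtb20* shares 0.307% of its span, and *Zhx2* 2.01%. Reads in introns cannot be told from reads in exons, and exons make up 4.01% of the span of *Zbtb20* and 3.05% of that of *Zhx2*.

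The ratio of *Afp* to *Alb* counts within a library needs no library size. In E14.5 CD54+CD31- cells it was 0.352, 0.366, and 0.369 in replicates 1, 2, and 3. In E18.5 CD54+CD31- cells it was 0.128, 0.127, and 0.123. In CD54+CD31+ cells it was 0.405, 0.412, and 0.403, and in P2 cells 0.378, 0.383, and 0.383. The 3 E18.5 libraries lay below the 9 E14.5 libraries without overlap and close to one another, although their *Alb* levels lay far apart.

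**Figure D2:**
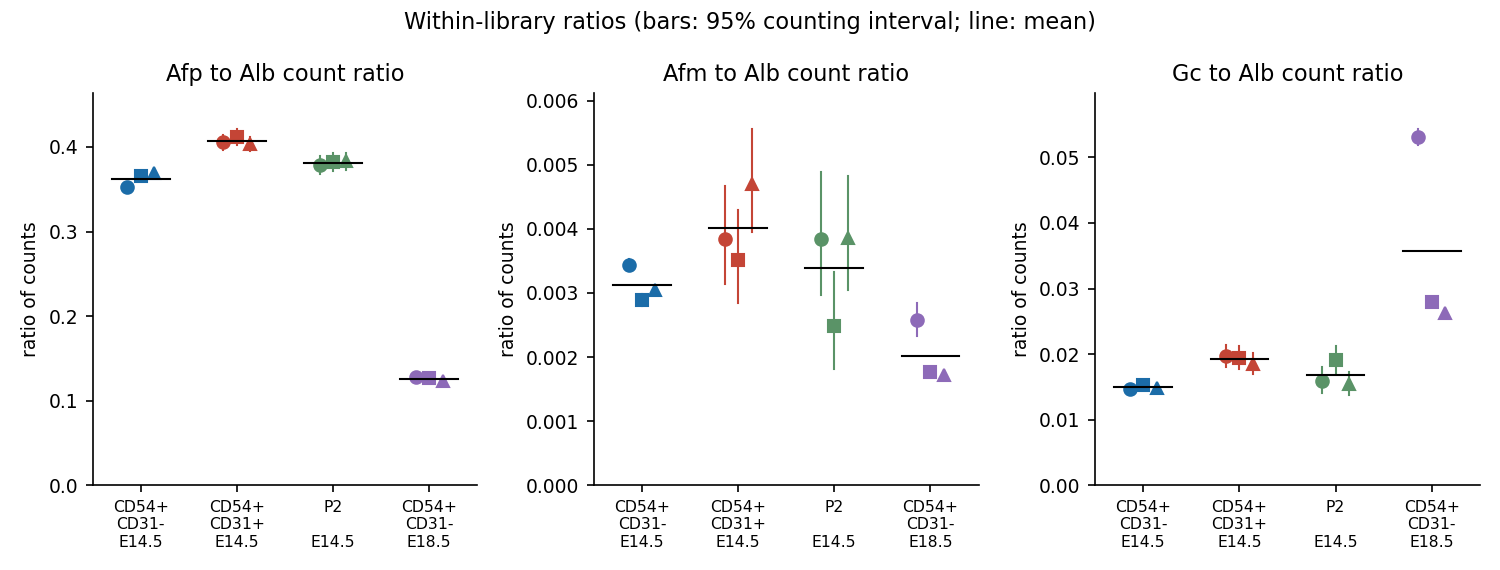
Ratios of *Afp*, *Afm*, and *Gc* counts to *Alb* counts in each library (linear axes from 0), by group; symbols are replicates 1, 2, and 3, bars exact 95% counting intervals, and lines group means. *Afp* to *Alb* is between 0.123 and 0.128 in the E18.5 libraries and between 0.352 and 0.412 in all E14.5 libraries.

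The ratio fell 2.88-fold from E14.5 to E18.5 in CD54+CD31- cells, from 0.362 ± 0.00878 to 0.126 ± 0.00283 (SD, n = 3; two-sided exact permutation p = 0.1 on log2 ratios, adjusted p = 0.129 over 18 comparisons). With 3 against 3 libraries 0.1 is the smallest p this test can give. Set against all 9 E14.5 libraries, a comparison added after the data were seen in which age and population are mixed, the ratio was 3.04-fold lower. No p is given for it, since the 9 libraries are 3 populations that may share litters. The largest half-width of the exact 95% counting interval was 2.87% of a ratio, in P2 cells. Intervals cover counting error only. Without E18.5 replicate 1 the log2 difference between the ages was -1.54, against -1.52 with it.

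Scaled by exon length, the ratio was 0.252 ± 0.00611 at E14.5 and 0.0876 ± 0.00197 at E18.5 (SD, n = 3). Scaled to the exon bases that no other counted gene shares, it was 0.696 ± 0.0169 and 0.242 ± 0.00543 (SD, n = 3). The scale changes the level and leaves the fold between the ages as it is.

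Among the E14.5 groups, the *Afp* to *Alb* ratio spanned a narrow range. It was 1.12-fold higher in CD54+CD31+ than in CD54+CD31- cells and 1.05-fold higher in P2 cells, both without overlap between libraries (two-sided exact permutation p = 0.1 in each, n = 3). The small *Alb* and *Afp* counts of the endothelial and erythroid gates thus held a ratio near that of the hepatoblast gate, and 13 to 15 of the 15 hepatoblast markers were above 0 in each of these 6 libraries. Whether transcripts of other cells account for these counts was not tested.

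The other carriers shifted against *Alb* as well. *Gc* to *Alb* was 0.0148, 0.0154, and 0.0148 in E14.5 CD54+CD31- cells and 0.0531, 0.0280, and 0.0262 at E18.5. All 3 E18.5 values were above all 9 E14.5 values, which ran from 0.0148 to 0.0196, and the E18.5 replicate 1 value was the highest. The rise was 2.26-fold between the CD54+CD31- groups (two-sided exact permutation p = 0.1, n = 3) and 2.01-fold against the 9 E14.5 libraries.

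*Afm* to *Alb* was 0.00344, 0.00289, and 0.00304 in E14.5 CD54+CD31- cells and 0.00257, 0.00177, and 0.00172 at E18.5. It was 1.57-fold lower at E18.5 (two-sided exact permutation p = 0.1, n = 3) and 1.74-fold lower against the 9 E14.5 libraries. The P2 replicate 2 value of 0.00248, from 45 *Afm* reads, lay below the highest E18.5 value. Without E18.5 replicate 1, *Afm* to *Alb* was 1.78-fold lower and *Gc* to *Alb* 1.81-fold higher than in E14.5 CD54+CD31- cells.

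The levels themselves varied far more at E18.5. *Alb* stood at 2405, 26609, and 34537 CPM in E18.5 replicates 1, 2, and 3, *Afp* at 309, 3376, and 4242 CPM, *Gc* at 128, 744, and 906 CPM, and *Afm* at 6.19, 47.0, and 59.5 CPM. Replicate 1 was the lowest for all 4, and it also had the lowest hepatoblast and the highest lung marker sum. For *Gc* the other 2 libraries lay above the 3 E14.5 libraries.

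From E14.5 to E18.5, *Afp* was called lower and *Zbtb20* and *Zhx2* higher, where 69.4% of the 15863 genes tested were called, 33.5% lower and 35.9% higher. *Afp* changed by -2.44 ± 0.85 on the log2 scale (SE, n = 3 libraries per group; adjusted p = 0.0386, edgeR), and by -1.92 ± 0.21 without E18.5 replicate 1 (adjusted p = 4.45e-05). The call rested on both sides of the comparison: it was lost without E14.5 replicate 1 (-2.52), 2 (-2.43), or 3 (-2.42) and without E18.5 replicate 2 (-2.66), with adjusted p between 0.0779 and 0.0873. The direction was the same in every such fit.

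*Alb* changed by -0.91 ± 0.88 (SE; adjusted p = 0.391, edgeR) and without replicate 1 by -0.38 ± 0.25 (adjusted p = 0.204). *Afm* changed by -1.71 ± 0.70 (SE; adjusted p = 0.0637, edgeR) and was called lower without replicate 1 (-1.22 ± 0.11, adjusted p = 1.60e-05) and without replicate 3 (-2.22, adjusted p = 0.0491). *Gc* changed by -0.0022 ± 0.61 (SE; adjusted p = 0.998, edgeR) and was called higher without replicate 1 (0.47 ± 0.12, adjusted p = 0.00779). Without replicate 1, 5 of the 6 genes were called, where 72.7% of genes were.

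**Figure D3:**
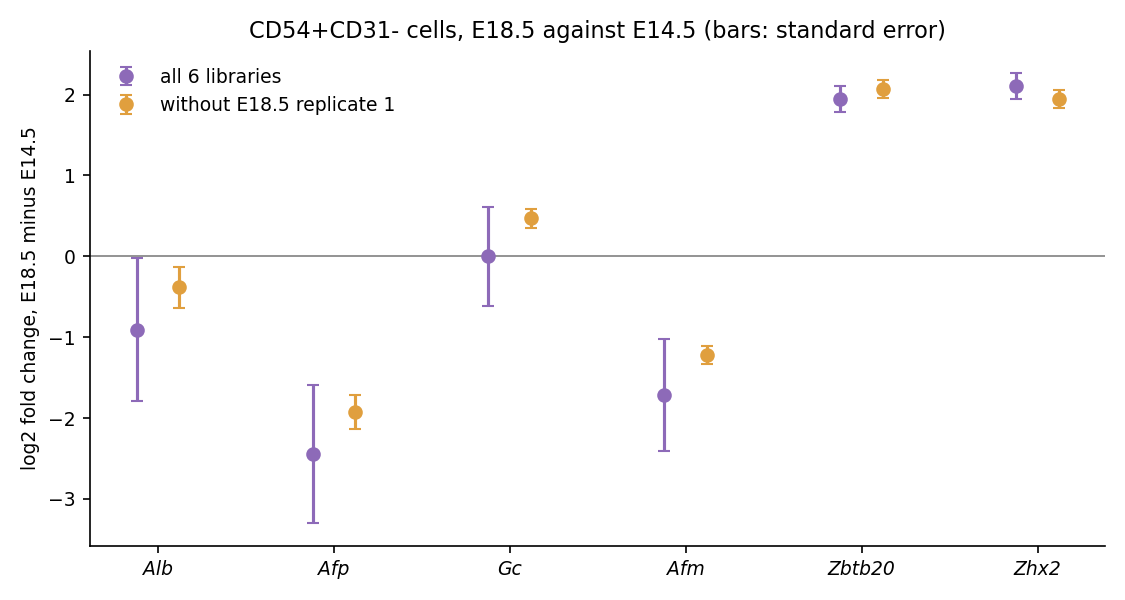
Log2 fold change of the 6 genes from E14.5 to E18.5 in CD54+CD31- cells, as points with standard errors, for all 6 libraries and without E18.5 replicate 1. *Zbtb20* and *Zhx2* lie near 2 in both fits, *Afp* lies below 0 in both, and the errors of the carriers shrink without replicate 1.

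*Zbtb20* stood at 236, 299, and 346 CPM in the E18.5 libraries, 3.85-fold above E14.5 (1.94 ± 0.16 on the log2 scale, SE; adjusted p = 8.98e-05, edgeR). *Zhx2* stood at 70.9, 55.8, and 53.5 CPM, 4.29-fold above E14.5 (2.10 ± 0.16, SE; adjusted p = 6.24e-05, edgeR). Every E18.5 library was above every E14.5 library for both, and the share of all genes without such overlap was not counted. *Zhx2* was highest in replicate 1, which had the highest lung marker sum, and *Zbtb20* was lowest there. Without replicate 1 the changes were 2.07 ± 0.11 and 1.95 ± 0.11 (SE), both called. Of 15 lung epithelium markers 14 were higher at E18.5, where 35.9% of all genes were. So were 9 of 9 mesenchymal, 6 of 6 cholangiocyte, and 10 of 10 endothelial markers tested. The cholangiocyte markers summed to 1291, 881, and 863 CPM in E18.5 replicates 1, 2, and 3, highest where the lung sum was highest. Which cells held these transcripts was not tested. Of 10 macrophage markers, 2 were higher and 8 were not called. Of 15 hepatoblast markers, 2 were higher and 2 lower, and 5 of 9 erythroid markers were lower. Without replicate 1, 7 hepatoblast markers were higher and 7 lower, and 8 erythroid markers were lower. Of all genes, 36.8% were then higher and 35.9% lower. The part of any of these cell types in the rise of *Zbtb20* and *Zhx2* was not tested.

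**Figure D4:**
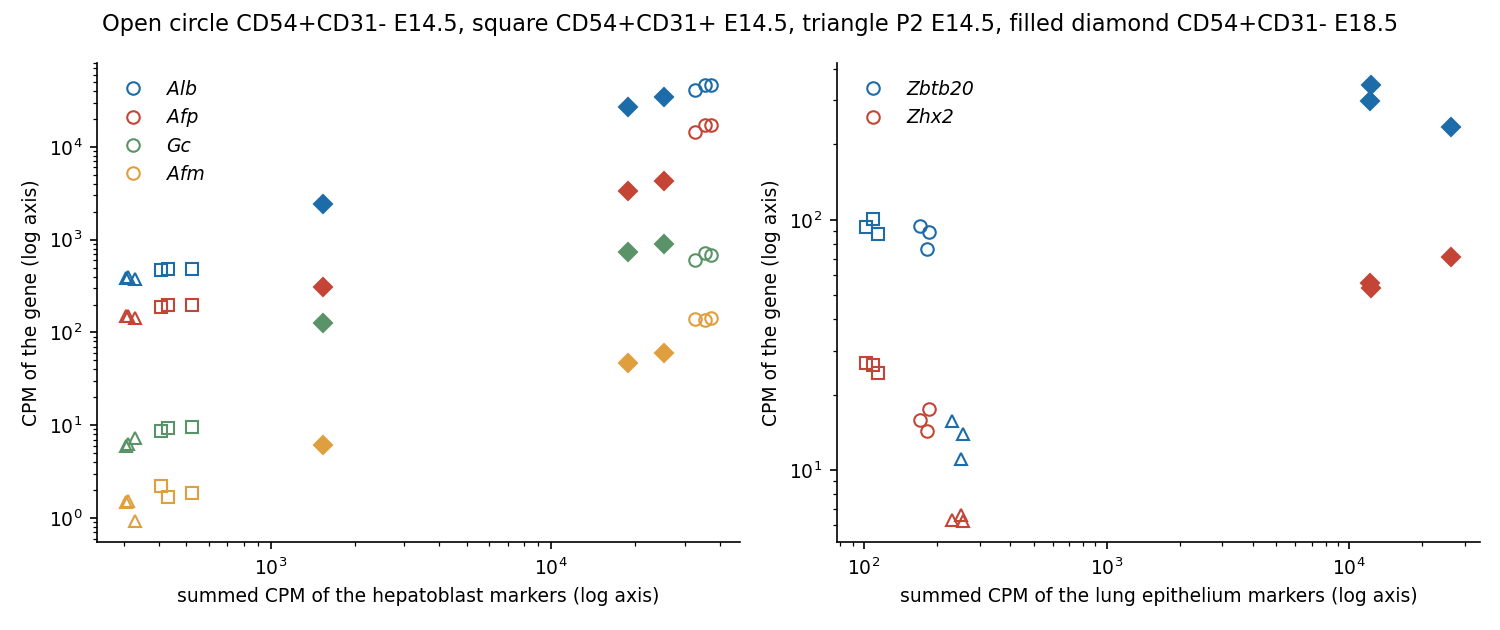
CPM of each gene against the summed CPM of the hepatoblast markers (left, carrier genes) or the lung epithelium markers (right, regulators), one point per library, log axes; marker shapes give the groups and filled diamonds the E18.5 libraries. The carriers are low where the hepatoblast sum is low, with E18.5 replicate 1 between the groups, and the 2 regulators are highest in the E18.5 libraries, whose lung sums lie between 12185 and 26139 CPM.

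Members were also set against the mean log2 CPM of the 15 hepatoblast markers of the same library, in the 6 CD54+CD31- libraries. On this scale *Afp* was 5.14, 5.23, and 5.20 above the list at E14.5 and 2.87, 2.82, and 2.72 above it at E18.5, a difference of -2.39 ± 0.05 (SE, n = 3; two-sided exact permutation p = 0.1, adjusted p = 0.12 over 6 genes). *Afm* differed by -1.51 ± 0.22 and *Alb* by -0.86 ± 0.03 (exact permutation p = 0.1 in each). Without E18.5 replicate 1 the differences were -2.42 for *Afp*, -1.72 for *Afm*, and -0.88 for *Alb*. *Alb* turned to 0.37 ± 0.03 against the median of the list, since the list itself moved unevenly: *Fbp1* (6.46 ± 1.05) and *Cps1* (4.18 ± 1.02), enzymes of gluconeogenesis and of the urea cycle, were higher at E18.5, and *Apoa2* (-2.68 ± 0.83) and *Itih2* (-2.56 ± 0.78) were lower. Without replicate 1 these 4 changed by 6.98, 4.73, -2.16, and -2.05. *Afp* was lower under both summaries, with -1.15 ± 0.04 against the median. For *Afm* the difference against the median was -0.28 ± 0.19, with overlap between the libraries (exact permutation p = 0.3). *Gc* differed by 0.32 ± 0.35 (exact permutation p = 0.7) against the mean, by -0.029 without replicate 1, and by 1.55 ± 0.31 against the median, without overlap (exact permutation p = 0.1). The place of *Alb*, *Gc*, and *Afm* relative to the list therefore depended on the summary. *Zbtb20* and *Zhx2* differed by 2.67 ± 1.1 and 2.83 ± 1.38 against the mean (exact permutation p = 0.1 in each), and by 1.58 and 1.46 without replicate 1. Against the median the differences were larger, at 3.90 ± 1.06 and 4.06 ± 1.34, so their size also depended on the summary.

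The other transcription factors tied to the albumin locus moved in both directions with age. Of 27 tested, 17 were higher and 7 lower at E18.5, with a median of 0.80 against 0.033 for all genes, and 18 and 7 without replicate 1. Of all genes, 35.9% were called higher and 33.5% lower. The largest changes were in *Nfix* (4.02 ± 0.18, SE; adjusted p = 1.65e-05, edgeR), a nuclear factor I protein, *Cebpd* (3.73 ± 0.33), a C/EBP family member, and *Foxa3* (-2.93 ± 0.62), a liver forkhead factor, with 3.87, 3.35, and -2.47 without replicate 1. *Hnf4a* (-2.30 ± 0.74), a core hepatocyte factor, was lower, with -1.79 without replicate 1. The lung and mesenchymal markers were higher at E18.5 too, and the part of such cells in these counts was not tested. In P2 cells 21 of the 27 were lower than in CD54+CD31- cells and 3 higher, where 36.1% and 33.8% of all genes were, led by *Foxa3* (-7.23 ± 0.23), *Foxa2* (-6.92 ± 0.18), and *Cebpa* (-6.59 ± 0.16). In CD54+CD31+ cells 13 were lower and 10 higher, where 34.0% and 31.7% of all genes were.

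Other fetal liver genes that are shut down after birth were lower at E18.5 in 7 of 9 cases, where 33.5% of all genes were, with a median of -1.18, and in 8 without replicate 1. The other 2, *Lpl* (-0.67 ± 0.52) and *Hmga2* (-0.36 ± 0.20), were not called with all libraries. *Lin28b* (-4.25 ± 0.52, SE; adjusted p = 0.000417, edgeR) and *Igf2bp1* (-2.73 ± 0.11), both RNA-binding proteins of fetal tissue, and *Igf2* (-1.83 ± 0.44), a fetal growth factor, led the list, with -3.84, -2.68, and -1.49 without replicate 1. *Lin28b* was also higher in P2 than in CD54+CD31- (0.79 ± 0.10) and CD54+CD31+ cells (2.42 ± 0.11), and 5 of 9 erythroid markers were lower at E18.5, 8 without replicate 1. Their summed level was between 154 and 356 CPM at E18.5 and between 594 and 943 CPM at E14.5, and its part in the change of *Lin28b* was not tested.

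Of 12 other plasma carriers tested, 5 were lower and 3 higher at E18.5, 8 of 12 in all, where 69.4% of all genes were called, and 7 and 4 without replicate 1. *Serpina6*, the corticosteroid carrier, changed by -6.91 ± 0.73 (SE; adjusted p = 0.000222, edgeR), *Shbg*, the sex steroid carrier, by -6.33 ± 0.79, and *Rbp4*, the retinol carrier, by -3.33 ± 0.82, and by -6.46, -5.83, and -2.82 without replicate 1. All 12 were lower in P2 and in CD54+CD31+ than in E14.5 CD54+CD31- cells, with medians of -6.77 and -6.32. Of all genes, 36.1% and 34.0% were lower in these comparisons. *Trf* and *Orm1* were not tested at low counts; *Trf* shares 99.5% of its span with another gene, so nothing is read from it.

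Of 6 tested receptors and adaptors that take up or recycle albumin, 3 were higher and 3 lower at E18.5, and all genes were called in both directions at 35.9% and 33.5%. *Lrp2*, the megalin receptor, changed by 5.08 ± 0.29 (SE; adjusted p = 2.65e-05, edgeR), *Amn*, the partner of cubilin, by -3.85 ± 0.32, and *Dab2*, an endocytic adaptor, by 1.85 ± 0.22, with 4.80, -4.09, and 1.91 without replicate 1. Lung, mesenchymal, and endothelial markers were higher at E18.5 too, and the part of such cells in these changes was not tested. In P2 cells, 5 of the 6 receptors and adaptors were lower than in E14.5 CD54+CD31- cells, where 36.1% of all genes were. *B2m*, which pairs with the neonatal Fc receptor *Fcgrt*, is listed at 0 in all 12 libraries and lies wholly within the span of *Patl2*.

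Across the 12 libraries, the genes whose levels were most like each member's were found by Pearson's r of log2(CPM + 1) among 9290 genes with a mean of at least 10 CPM. The libraries form 4 groups, so r mostly reflects the group levels and is given as a description. For *Alb* they were *Kng1* (0.9997), *Apof* (0.9997), and *C8b* (0.999), for *Afp* *Itih2* (0.999), *H2-Q10* (0.999), and *Gys2* (0.999), for *Gc* *Itih4* (0.998) and *Ahsg* (0.997), and for *Afm* *Elovl2* (0.999), *Dgat2* (0.998), and *Cbs* (0.998). *Kng1* and *Itih2* are also among the hepatoblast markers. For *Zbtb20* they were *Trp53inp2*, *Phlda1*, and *Mkl1* (0.992 to 0.990), and for *Zhx2* *Dennd3*, *Lamc1*, and *Mllt6* (0.997 to 0.994). Among the members themselves, r was between 0.931 and 0.994 for pairs of carriers and 0.955 for *Zbtb20* with *Zhx2*, and between 0.224 and 0.677 for pairs of a carrier and a regulator.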

How the data were processed

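Ter119-CD45- cells of 4 phenotypes were sorted from FL, 3 libraries each, after enzymatic rRNA removal with a stranded total RNA kit. Per the labels, the authors trimmed reads with cutadapt 1.11, aligned them to GRCm38 with STAR 2.5.0a, and counted them per gene with featureCounts 1.4.6-p3; annotation release, feature type, and strand setting are not given in the sources used here. The authors deposited raw counts and, beside them, a normalized score that equals each count times a constant of its library, to the nearest whole number (DESeq2 in R 3.5.1). The counts were tested, and the score gave only the authors' factors.

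Groups came from the sample labels. The 6 genes and the lists were chosen with earlier results of these data known. Counts were tested with edgeR 4.0.16 (R 4.3.3; TMM, filterByExpr, quasi-likelihood test, Benjamini-Hochberg adjusted p below 0.05): the 9 E14.5 libraries together, the 6 CD54+CD31- libraries apart, and all 12 for E18.5 against P2 and CD54+CD31+ cells. Each standard error is the absolute log2 fold change over the square root of F. Ratios used exact two-sided permutation tests (scipy 1.17.1). The tests were tried on simulated counts. Depth was at least 40714017 counts per library, so that the number of libraries, 3 per group, limits the precision. No replicate pair was a repeat of 1 library (lowest ratio of chi-square to its degrees of freedom, 39.6). Besides the 6 genes, those named were the 3 most similar genes by correlation for each of the 6 genes and the 3 largest called changes of a list; *Hnf4a*, *Lpl*, *Hmga2*, *B2m*, *Trf*, *Orm1*, and the hepatoblast markers were named after their values were seen. H19 was not matched by name, and some genes that these rules pick are not reported here. Gene models are from GENCODE vM21 (37932 of 38127 identifiers matched).

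Replicate numbers from the labels were checked for pairing. Deviations of same-numbered CD54+CD31+ and CD54+CD31- libraries at E14.5 correlated at 0.334, 0.260, and 0.122, all above the limit of 0.1 used here. No other pair of groups was above this limit in all 3 numbers, though CD54+CD31+ and P2 replicate 3 correlated at 0.336. Libraries of different numbers were not compared, so the check cannot settle whether the numbers pair any groups. The reported fit has no block, and the blocked values stand with the alternatives. Alternatives were DESeq2's size factors, the authors' factors, genes above 1% left out of the scaling, DESeq2 1.42.0, no filter, a replicate block, other sets of libraries, the median of the marker list, and each library left out; the comparison of ratios over 3 against 9 libraries and list counts without E18.5 replicate 1 were added after the data were seen.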

Additional observations from a re-analysis of the deposited data

How the results depend on the processing

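Beside the fits without one library, 376 of 391 comparisons of an alternative with the reported value were labelled the same. The cause of the others was not tested except where named. For the log2 fold change of a gene, this label meant the same direction and side of the threshold. For counts of called genes and ratios of summed counts, it meant only a value close to the reported one. Other ratios and levels relative to the markers could change only in direction, since the exact p of 3 against 3 libraries cannot fall below 0.1. The *Afp* to *Alb* ratio against all 9 E14.5 libraries, to which this bound does not apply, was not labelled the same. The total is thus not a measure of stability. *Gc* from E14.5 to E18.5 turned from -0.0022 to 0.022 with DESeq2's size factors, 0.23 with the authors' factors, 0.057 with genes above 1% left out of the scaling, 0.022 in DESeq2, and 0.015 without a filter, all within its standard error. *Afm* in that comparison was called in DESeq2 (-1.69) and with all 12 libraries in one fit (-1.89). In P2 against CD54+CD31+ cells, the fit of all 12 libraries, which takes in the spread of the E18.5 group, called 2 of the 6 genes and gave -0.30 for *Alb*, -0.40 for *Afp*, -0.50 for *Gc*, and -0.54 for *Afm*; *Afm* was not called with only the 6 libraries compared (-0.52). Relative to the hepatoblast markers, *Alb* turned to 0.37 with the median of the list. Against all 9 E14.5 libraries the log2 difference of the *Afp* to *Alb* ratio was -1.60.

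Leaving out one library gave -0.055 to 0.17 for *Zbtb20* in CD54+CD31+ against CD54+CD31- cells. In P2 against CD54+CD31+ cells it gave 4 to 6 genes called, -0.31 to -0.24 for *Alb*, and -0.66 to -0.35 for *Afm*. From E14.5 to E18.5 it gave 2 to 5 genes called, -2.97 to -1.92 for *Afp*, -0.45 to 0.47 for *Gc*, -2.22 to -1.22 for *Afm*, and -0.029 to 0.52 for *Gc* relative to the hepatoblast markers.

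The replicate block gave -3.01 ± 0.92 (SE; adjusted p = 0.0411, edgeR) for *Afp*, -1.47 for *Alb*, -0.37 for *Gc*, and -2.14 for *Afm* from E14.5 to E18.5, and changed no call of the 6 genes in any comparison. For the E14.5 CD54+CD31+ and CD54+CD31- groups, whose pairing is not settled, it gave -6.56 ± 0.11 for *Alb* (adjusted p = 7.56e-09, edgeR). Taken as pairs by number, the exact sign-flip test of the *Afp* to *Alb* ratio gave p = 0.25, the smallest that 3 pairs allow. The same-numbered CD54+CD31- libraries of the 2 ages correlated at 0.069, 0.017, and 0.046 and share only a number. The authors' factors moved the share of higher calls from 48.3% to 38.2% in P2 against CD54+CD31- cells, from 46.6% to 33.9% in P2 against CD54+CD31+ cells, from 54.6% to 70.0% in E18.5 against P2 cells, and from 43.3% to 56.8% in E18.5 against CD54+CD31+ cells. With them the median log2 change of all genes was -0.27, -0.50, 0.96, and 0.14 in these comparisons and 0.27 from E14.5 to E18.5. Ratios within a library do not depend on any factor.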
